A study of Mus musculus with 7 samples.

Results

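The unfolded protein and ATF4 stress response was followed in liver neutrophils through 10 genes, Hspa5, Xbp1, Herpud1, Atf4, Atf5, Ddit3, Trib3, Asns, Sesn2 and Ppp1r15a. They were taken by symbol from a table of 16047 genes, all 10 were present, and all 10 passed the filter of a mean of at least 1 RPKM that left 9594 genes for testing. RPKM is a read count scaled to the length of the transcript and to the mapped reads of the library. The neutrophils came from perfused livers of male C57BL/6 mice aged 8 to 12 weeks, 24 h after acetaminophen-induced liver injury (AILI), which was set off by 300 mg/kg of acetaminophen. One group of 4 mice received PBS, and a group of 3 mice received MC-21, an antibody against the chemokine receptor CCR2 that removes Ly6Chi monocytes from blood and so leaves the liver without the infiltrating ones. MC-21 was injected as 400 µL of conditioned medium with 29 µg/mL of antibody, and both groups were injected from 12 h before acetaminophen and every 24 h, so that the control group received buffer and not a medium with another antibody. From each liver 50000 cells were sorted as CD11b+Ly6CloCX3CR1-GFP-Ly6G+. The labels give the strain as C57BL/6 without a GFP reporter, so whether the GFP part of this gate could act on these cells is not known here. The comparison asks how the neutrophil transcriptome differed when Ly6Chi monocytes were missing. All animals were injured, so the values hold no uninjured baseline.

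Secretory and membrane proteins fold in the endoplasmic reticulum (ER), and unfolded protein there is sensed by IRE1 (Ern1), PERK (Eif2ak3) and ATF6. IRE1 splices the Xbp1 mRNA into the form that encodes an active transcription factor, and this factor and cleaved ATF6 raise chaperones and the machinery that disposes of misfolded protein. PERK and the other eIF2 kinases slow translation in general while letting the Atf4 mRNA be translated, and ATF4 then drives genes of amino acid supply, redox balance and, through Ddit3 (CHOP), cell death. XBP1 is also known for its part in the differentiation of secretory leukocytes. A value of RPKM per gene does not tell spliced from unspliced Xbp1 mRNA, and it does not show the translational control of Atf4.

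Upstream sequences of Hspa5, Xbp1, Herpud1 and Asns, and a short stretch of Trib3, are shown because ATF4, ATF6 and XBP1 act through short elements that can be read in them. They are the 250 bases before the RefSeq start of each gene in GRCm38.p6, printed 5′ to 3′ in the direction of the gene, and the capitals mark matches to an element.
Hspa5, chr2:34771840-34772089, plus strand: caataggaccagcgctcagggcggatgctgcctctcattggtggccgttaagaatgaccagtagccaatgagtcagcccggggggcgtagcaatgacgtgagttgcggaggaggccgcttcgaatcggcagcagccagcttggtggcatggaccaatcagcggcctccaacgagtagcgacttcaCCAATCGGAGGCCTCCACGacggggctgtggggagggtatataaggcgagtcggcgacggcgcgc
Xbp1, chr11:5520391-5520640, plus strand: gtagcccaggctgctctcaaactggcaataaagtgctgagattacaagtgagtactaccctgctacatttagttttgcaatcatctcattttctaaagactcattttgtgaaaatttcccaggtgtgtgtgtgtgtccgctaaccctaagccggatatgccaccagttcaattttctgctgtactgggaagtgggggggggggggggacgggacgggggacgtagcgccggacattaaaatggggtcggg
Herpud1, chr8:94386179-94386428, plus strand: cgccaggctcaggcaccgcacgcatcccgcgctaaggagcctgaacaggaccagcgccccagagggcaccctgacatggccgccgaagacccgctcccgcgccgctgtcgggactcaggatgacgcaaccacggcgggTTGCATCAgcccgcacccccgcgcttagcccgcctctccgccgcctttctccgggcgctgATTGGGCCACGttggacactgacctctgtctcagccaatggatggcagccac
Asns, chr6:7693210-7693459, minus strand: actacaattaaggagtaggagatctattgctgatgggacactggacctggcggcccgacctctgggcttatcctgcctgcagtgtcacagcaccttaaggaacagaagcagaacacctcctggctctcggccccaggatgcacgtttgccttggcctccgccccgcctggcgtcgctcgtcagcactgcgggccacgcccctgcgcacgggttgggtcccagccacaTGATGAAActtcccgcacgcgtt
Trib3, around the match after its start: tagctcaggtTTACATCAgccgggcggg

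The capitals in Hspa5 are an ER stress response element, searched as CCAAT and CCACG with 9 bases between them, from position -65 to -47 before the start. In Herpud1, capitals mark a C/EBP-ATF response element (TGATGNAA) on the opposite strand at -112 to -105, and a second kind of ER stress element (ATTGGNCCACG), a motif that was added to the search afterwards, at -52 to -42. In Asns the match to TGATGNAA lies at -23 to -16, and in Trib3 it lies on the opposite strand at 15 to 22 after the start. The Xbp1 window held none of the elements searched, which included TGACGTGG, and neither did the windows of Atf4, Atf5, Ddit3, Sesn2 and Ppp1r15a. Both strands of the 250 bases before and 50 after each start were searched, and no matches within a member overlapped. Of 32851 such windows, 3.97% held TGATGNAA, 0.119% the ER stress response element, 0.0365% its second kind and 0.676% TGACGTGG. These matches are letters in a window and say nothing about binding in neutrophils.

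The 7 libraries held between 1590000 and 3960000 reads, recovered from the steps of low RPKM values, and MC-21 replicate 3 was the shallowest. Neutrophil genes led by S100a9 had a summed level of 18490 to 31670 RPKM in PBS and 28480 to 42080 in MC-21. Levels within the list differed widely. Over the 7 libraries Ly6g, the sorting marker, ran from 16.3 to 69.0 RPKM and Mmp8 from 5.145 to 49.75, both named after their values were seen. Monocyte and macrophage genes led by Apoe summed to 1853 to 2199 RPKM in PBS and 1062 to 1505 in MC-21, and 5 of the 12 tested passed the adjusted threshold, all lower in MC-21. Kupffer cell genes led by Marco summed to 56.3 to 84.4 against 34.3 to 64.4, liver endothelial genes led by Igfbp7 to 3848 to 6488 against 4134 to 6027, and hepatocyte genes led by Apoa1 to 365.5 to 763.6 against 361.5 to 556.3. B cell and plasma cell genes led by Cd79b summed to 18.8 to 38.8 RPKM in PBS and 8.33 to 11.8 in MC-21, and T cell and NK cell genes led by Nkg7 to 8.26 to 12.9 and 5.41 to 11.3. No marker was at 0 in every library. These are mixed RNA pools, in which fewer cells of a type and less RNA per cell cannot be told apart. One spread within the groups touched the members: Hspa5 was highest in MC-21 replicate 2 and PBS replicates 6 and 7, and these 3 libraries, picked from Hspa5 itself, were also the highest 3 in 700 genes tested (7.3%). In 54 of the 700, Hspa5 included, each of them was more than 2-fold above the other 4 on log2(RPKM + 1). How often other trios of libraries were highest together was not counted.

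Of the 10 genes, only Xbp1 rose in MC-21 by the adjusted p, against 0.625% of all genes tested with an adjusted p under 0.05 in either direction. Before adjustment, 4 members were higher with p under 0.05, a share to be read against 3.59% of all genes, and 1 was lower, against 11.2%. Trib3 is among the 4 although its PBS mean of 0.968 RPKM was under the filter limit of 1 RPKM. It passed the filter through its MC-21 mean of 2.34 RPKM, so its place in these counts and medians is tied to its direction. The groups did not overlap in 3 members that were higher in MC-21 (3.1% of all genes) and in 1 that was lower (10.2% of all genes). The median log2 fold change of the 10 was 0.30, while that of all genes tested was -0.15, and 69.4% of all genes were lower in MC-21. Centring each library on its median moved the median of all genes to 0.02 and that of the 10 to 0.46, and then 9 of the 10 were higher instead of 7. All levels below are RPKM, and all differences are MC-21 minus PBS on log2(RPKM + 1), with a standard error (SE) from limma.

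**Figure D1:**
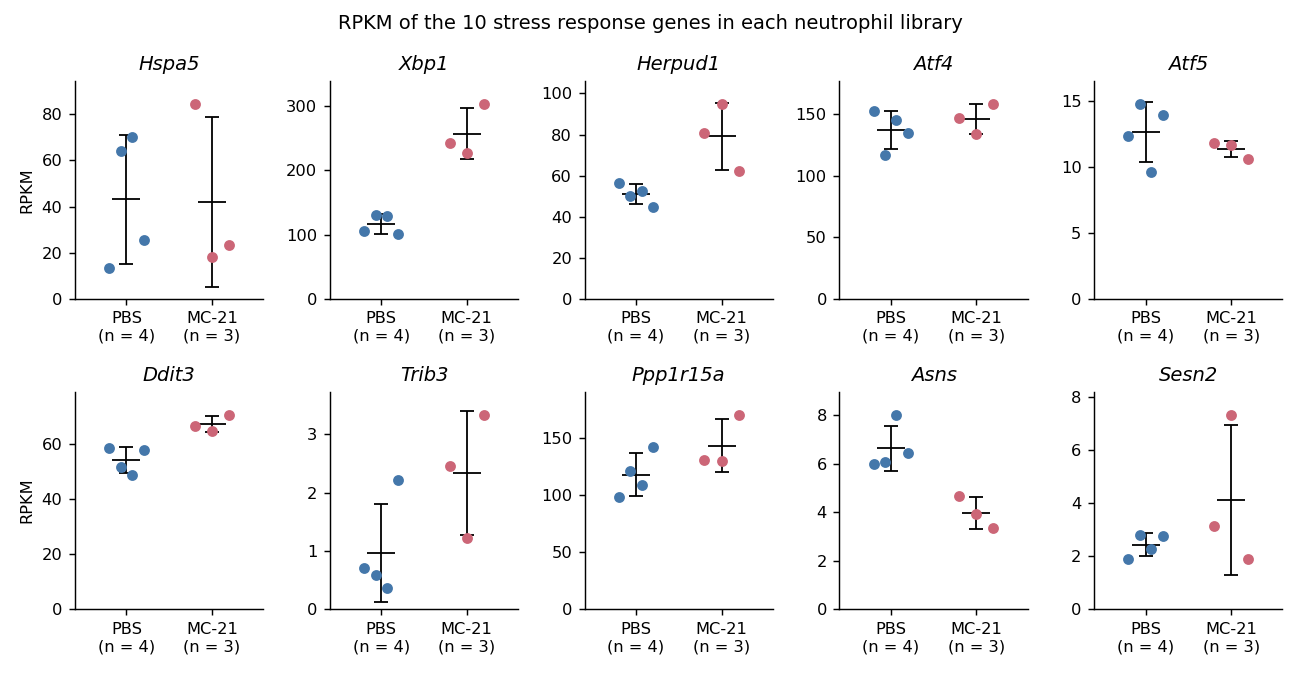
RPKM (vertical axis, from 0) of each gene in every library, with the 4 PBS libraries in blue and the 3 MC-21 libraries in red; black lines are the mean and SD. The groups do not overlap in Xbp1, Herpud1, Ddit3 and Asns, and Hspa5 is spread widely within both groups.

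Xbp1 (mm9 chr11:5420662-5425896) encodes the transcription factor of the IRE1 branch. Its level was 106, 131, 130 and 101 RPKM in PBS replicates 5 to 8, and 243, 226 and 303 RPKM in MC-21 replicates 2 to 4. The lowest MC-21 library was well above the highest PBS library, and each value rests on 659 to 1950 reads. The means were 117 ± 15.4 RPKM (SD, n = 4) in PBS and 257 ± 40.2 (SD, n = 3) in MC-21, a ratio of 2.20. The log2 fold change was 1.13 ± 0.16 (SE; limma adjusted p = 0.0172), and the exact permutation test gave p = 0.0286, two-sided, the smallest that 4 against 3 can give. The adjusted p was 0.0516 to 0.0814 when any of MC-21 replicates 2 and 4 or PBS replicates 7 and 8 was left out, and 0.0221 to 0.0446 when any of the other 3 was. Without the 3 libraries in which Hspa5 was highest (MC-21 replicate 2 and PBS replicates 6 and 7) the log2 fold change was 1.33 (adjusted p = 0.0988). Beside this difference, the 5 tested genes of the B cell and plasma cell list and 11 of the 12 of the monocyte and macrophage list had negative log2 fold changes, with the summed levels given above, and 8 of the 10 neutrophil genes had positive ones. Their part in the Xbp1 result was not tested.

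Herpud1, an ER membrane protein that helps to dispose of misfolded proteins, stood at 56.4, 50.1, 52.6 and 44.8 RPKM in PBS and at 80.6, 94.7 and 62.1 RPKM in MC-21. The ranges of the groups did not overlap, with MC-21 replicate 4 closest to PBS. The means were 51.0 ± 4.89 RPKM (SD, n = 4) and 79.1 ± 16.4 (SD, n = 3), and the log2 fold change of 0.61 ± 0.17 (SE) did not pass the adjusted threshold (limma adjusted p = 0.17, unadjusted p = 0.00572; exact permutation p = 0.0286). The gene lies at chr8:96910338-96919277 in mm9, and its 5′ end overlaps the transcript Gm15890 on the other strand by 535 bases.

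Hspa5 (mm9 chr2:34627490-34632051) encodes BiP, the main ER chaperone and the protein that holds the 3 sensors inactive. It was at 13.3, 63.9, 70.0 and 25.5 RPKM in PBS and at 84.3, 18.3 and 23.1 RPKM in MC-21. The groups overlapped throughout, and the highest library was 6.35 times the lowest. The means were 43.2 ± 28.0 RPKM (SD, n = 4) and 41.9 ± 36.8 (SD, n = 3). The log2 fold change was -0.09, with a 95% interval from -1.53 to 1.34 (limma adjusted p = 0.961), so that neither a rise nor a fall of 2-fold lay outside the interval. Its 3 high values were those of MC-21 replicate 2 and PBS replicates 6 and 7, and with these left out, a choice made from the values of Hspa5 themselves, the log2 fold change was 0.15. Pdia3, a disulfide isomerase of the ER chosen after its values were seen, was likewise highest there, at 7.50 and 7.68 RPKM in PBS replicates 6 and 7 and 11.6 in MC-21 replicate 2, against 1.36 to 3.82 in the other 4. Of the other pathway genes, 7 had the same 3 highest libraries. The gap to the other 4 on log2(RPKM + 1) was 1.29 for Hspa5 and 0.82 for Pdia3. It was 0.02 to 0.14 for Sdf2l1, Edem1, Eif2b2, Nfe2l2, Iars and Dars. Hsp90b1 and Calr varied less than Hspa5, and both were named for this contrast after their values were seen. Over the 7 libraries Hsp90b1 ran from 63.7 to 113 RPKM and Calr from 228 to 409.5. What set the pattern was not tested.

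**Figure D2:**
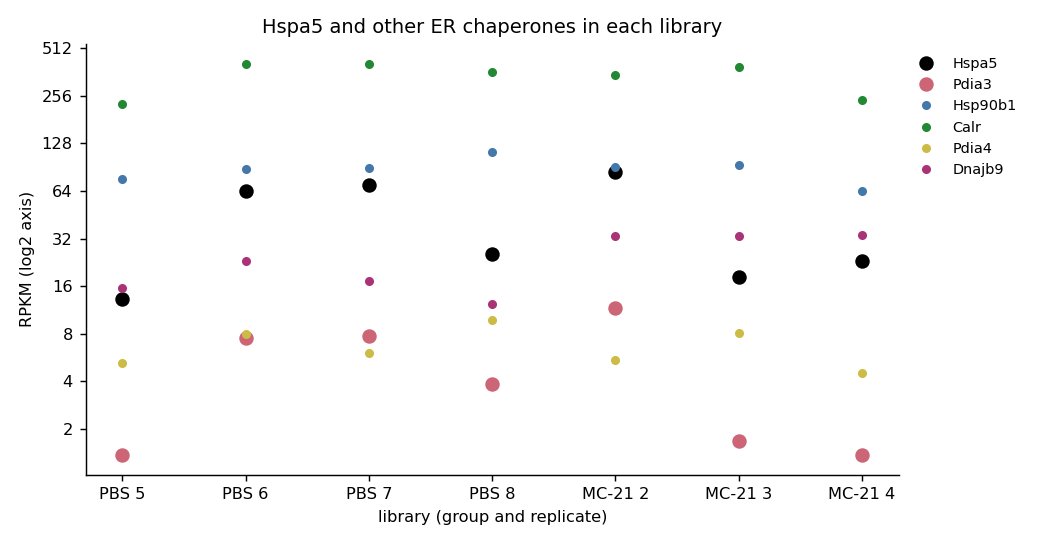
RPKM (vertical log2 axis) of Hspa5 and 5 other ER chaperones and folding enzymes in each library (horizontal axis, group and replicate). Hspa5 and Pdia3 are highest in PBS 6, PBS 7 and MC-21 2, while Dnajb9 lies at 33.0 to 33.7 in all 3 MC-21 libraries and at 12.3 to 23.2 in the PBS libraries.

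Atf4, the transcription factor at the centre of the integrated stress response, was among the most abundant members, above 94.4% of genes tested by its PBS mean. It stood at 153, 117, 145 and 135 RPKM in PBS and at 147, 134 and 158 RPKM in MC-21. The groups overlapped, and the log2 fold change was 0.09 with a 95% interval from -0.22 to 0.41 (limma adjusted p = 0.795). Atf5, a related factor that is translated under the same conditions, was lower than Atf4 in every library, at 12.3, 14.8, 9.62 and 13.9 RPKM in PBS and 11.8, 11.7 and 10.6 RPKM in MC-21. All MC-21 values lay within the PBS range, and the log2 fold change of -0.13 (95% interval -0.54 to 0.28, limma adjusted p = 0.781) became 0.03 after median centring and 0.01 after quantile normalization. The 5′ end of Atf5 overlaps those of Nup62 and Il4i1 on the other strand.

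Ddit3 encodes CHOP, which ATF4 induces and which favours cell death when stress lasts. It was at 58.5, 51.7, 48.8 and 58.0 RPKM in PBS and 66.5, 64.9 and 70.6 RPKM in MC-21. The groups did not overlap, but the means of 54.2 ± 4.78 RPKM (SD, n = 4) and 67.3 ± 2.92 (SD, n = 3) were close, and the log2 fold change was 0.31 ± 0.13 (SE; limma adjusted p = 0.327, unadjusted p = 0.044; exact permutation p = 0.0286). Its end overlaps that of Mars, a tRNA synthetase gene on the other strand, by 68 bases in mm9, and whether the counting used strand is not given in the sources used here. Mars itself was at 11.5 to 16.8 RPKM in PBS and 11.2 to 12.7 in MC-21.

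Trib3, a pseudokinase that restrains ATF4 and CHOP, was the least abundant member, at 0.705, 0.586, 0.367 and 2.21 RPKM in PBS and 2.46, 1.23 and 3.33 RPKM in MC-21. These values stand for 4, 4, 2 and 18 reads and for 18, 4 and 19 reads. The PBS mean of 0.968 RPKM was under the filter limit of 1 RPKM, and Trib3 was tested only because its MC-21 mean was 2.34 RPKM. PBS replicate 8 was within the MC-21 range, and MC-21 replicate 3, the shallowest library, has a 95% exact Poisson interval from 0.334 to 3.14 RPKM, which covers counting error only. The log2 fold change was 0.79 ± 0.34 (SE; limma adjusted p = 0.329, unadjusted p = 0.0455; exact permutation p = 0.143), and it was 0.41 without the 3 libraries in which Hspa5 was highest.

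Ppp1r15a encodes GADD34, the subunit that brings a phosphatase to eIF2 and ends the translational block. It was at 98.5, 121, 109 and 142 RPKM in PBS and 130, 129 and 170 RPKM in MC-21. The groups overlapped through PBS replicate 8, and the log2 fold change was 0.28 with a 95% interval from -0.10 to 0.66 (limma adjusted p = 0.476). Its end overlaps that of Tulp2 on the other strand by 717 bases in mm9.

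Asns (mm9 chr6:7625169-7643254), asparagine synthetase and a standard target of ATF4, was the only member whose MC-21 values all lay below those of PBS. It was at 6.00, 6.08, 8 and 6.42 RPKM in PBS and at 4.65, 3.91 and 3.36 RPKM in MC-21, from 12 to 49 reads a library. The means were 6.62 ± 0.934 RPKM (SD, n = 4) and 3.97 ± 0.647 (SD, n = 3). The log2 fold change of -0.62 ± 0.19 (SE) did not pass the adjusted threshold (limma adjusted p = 0.19, unadjusted p = 0.00824; exact permutation p = 0.0286). Asns kept its negative sign under all 16 alternatives, between -0.74 and -0.44. Sesn2, a sestrin that restrains mTORC1, overlaps the transcript Gm12981 on the same strand by 6089 bases in mm9. It was at 1.91, 2.83, 2.27 and 2.76 RPKM in PBS and 3.16, 7.34 and 1.90 RPKM in MC-21. A single library, MC-21 replicate 3, was high while replicate 4 was the lowest of all 7, and the log2 fold change of 0.44 (95% interval -0.30 to 1.19, limma adjusted p = 0.573) was 0.02 without replicate 3.

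**Figure D3:**
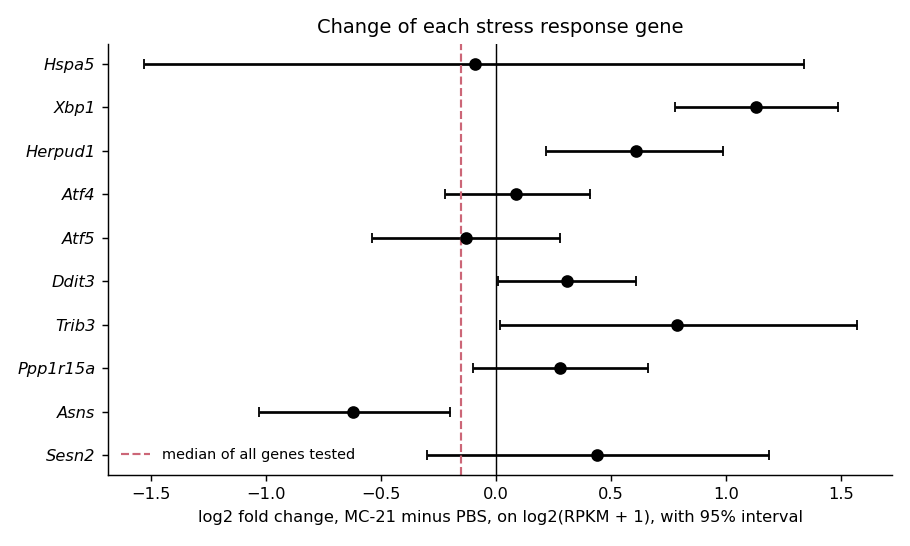
Log2 fold change of each gene (MC-21 minus PBS, horizontal axis) with its 95% interval from limma; the dashed line is the median of all genes tested. The interval of Xbp1 runs from 0.78 to 1.49, that of Asns from -1.03 to -0.20, and that of Hspa5 is the widest of the 10.

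Of 101 other genes of these pathways, 91 were tested and none passed the adjusted threshold in limma, while 15 had an unadjusted p under 0.05, 2 of them higher (2.2%, against 3.59% of all genes tested) and 13 lower in MC-21 (14.3%, against 11.2%). These shares were near those of all genes. Their median log2 fold change was -0.15, as it was for all genes tested, and after median centring the 15 became 17, of which 11 were higher and 6 lower. The direction of the split therefore depends on the scaling.

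The ER arm held both higher genes. Dnajb9, a co-chaperone of BiP and a target of XBP1, was at 15.5, 23.2, 17.3 and 12.3 RPKM in PBS and 33.3, 33.0 and 33.7 RPKM in MC-21. Its groups did not overlap, and its log2 fold change of 0.96 ± 0.20 (SE) had a limma adjusted p of 0.076 and an unadjusted p of 0.000956. Syvn1, the ubiquitin ligase HRD1 of ER-associated degradation, was at 23.7 to 27.1 RPKM in PBS and 31.9 to 36.9 in MC-21, with a log2 fold change of 0.44 ± 0.14 (SE; limma adjusted p = 0.205). The 17 chaperones and folding enzymes had a median log2 fold change of -0.09 (0.07 after median centring). For the 14 tested genes of ER-associated degradation it was 0.06 (0.22 after median centring). Of these 14, 9 were higher and 5 lower (35.7% lower, against 69.4% of all genes tested). After median centring 12 were higher and 2 lower, against 5055 and 4539 of all genes tested. In 3 of the 14 the groups did not overlap and MC-21 was higher, against 3.1% of all genes tested. Among the sensors and their proteases 4 of 6 were tested. Atf6b, a relative of ATF6, was at 17.1 to 25.8 RPKM in PBS and 12.1 to 13.5 in MC-21 (log2 fold change -0.64 ± 0.17 SE; limma adjusted p = 0.155). Ern1, which encodes IRE1 and is named after its values were seen, was at 0 in 5 of the 7 libraries and at no more than 0.151 RPKM, which leaves its level undetermined at this depth.

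In the eIF2 arm 3 of 13 tested genes were past the unadjusted threshold and lower (23.1%, against 11.2% of all genes tested). A negative sign alone was shared by 69.4% of all genes tested. The median of the 13 was -0.26, or -0.10 after median centring, when 5 were higher and 8 lower. Eif2b4 and Eif2b1, subunits of the exchange factor eIF2B, had log2 fold changes of -0.57 and -0.46, and Ppp1ca, a catalytic subunit of the phosphatase, one of -0.31 (limma adjusted p = 0.181, 0.249 and 0.332). Of 14 partners and feedback genes of ATF4, 3 were past the unadjusted threshold and lower (21.4%, against the same 11.2%). The median of the 14 was -0.15, or 0.01 after median centring, when 7 were higher and 7 lower. Atf3 was at 111 to 143 RPKM in PBS and 82.4 to 101 in MC-21, a log2 fold change of -0.52 ± 0.14 (SE; limma adjusted p = 0.165). Bbc3, the pro-apoptotic protein PUMA, and Nupr1, a small stress protein of chromatin, had log2 fold changes of -0.69 and -0.83 (limma adjusted p = 0.264 and 0.332). Among 10 tested genes of amino acid synthesis and transport, 3 (30%) were past it and lower. These were Psph, Cbs and Slc1a5, which act in serine synthesis, transsulfuration and glutamine uptake. Their log2 fold changes were -0.73, -0.93 and -0.61 (limma adjusted p = 0.236, 0.237 and 0.327). The median of the 10 was -0.23, or -0.07 after median centring, when 5 were higher and 5 lower. All 19 aminoacyl-tRNA synthetases had negative log2 fold changes, from -1.02 to -0.06, but after median centring 6 of them were positive. Wars, Kars and Dars, with log2 fold changes of -0.62, -0.50 and -1.02, were the 3 past the unadjusted threshold (15.8% of the 19; limma adjusted p = 0.203, 0.231 and 0.338).

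**Figure D4:**
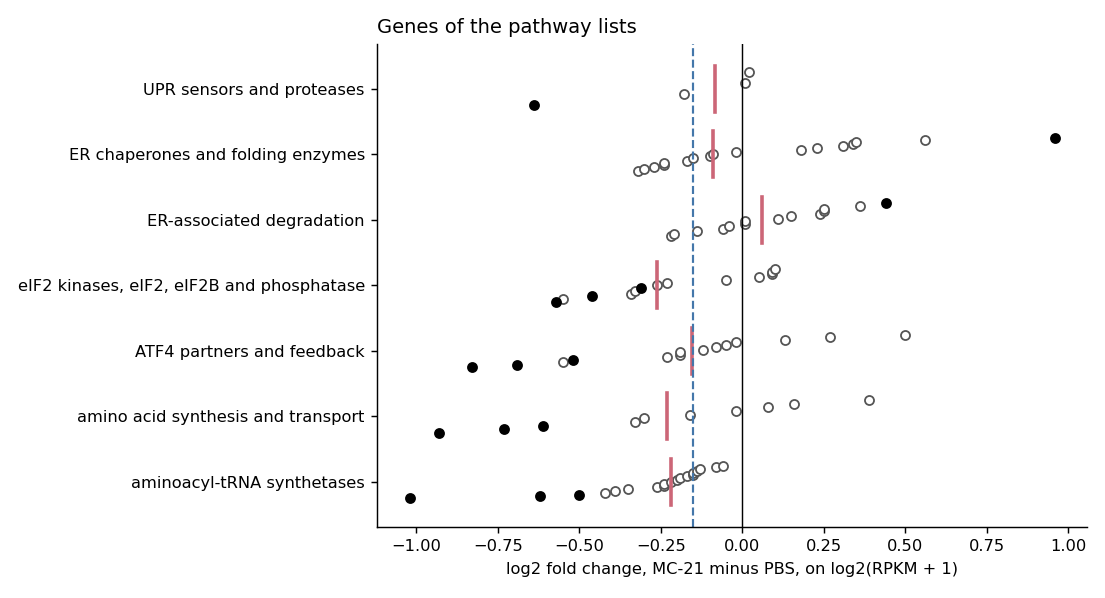
Log2 fold change (MC-21 minus PBS, horizontal axis) of every tested gene of 7 pathway lists; filled points have an unadjusted p under 0.05, red bars are list medians and the dashed line is the median of all genes tested. The filled points on the right are Dnajb9 and Syvn1, and the other 13 lie on the left.

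List genes on chromosome 18, among them Hars, Lars, Nars and Impact, were not searched, so the counts here leave them out. Of 13 tested genes of the lists with TGATGNAA, 4 were higher and 9 lower (69.2% lower, against 69.4% of all genes tested). Their median log2 fold change was -0.22. After median centring 6 were higher and 7 lower. Of the members among them, Herpud1 and Trib3 were higher and Asns lower. Of 8 with the ER stress response element, 2 were higher and 6 lower, with a median of -0.09, and after median centring 7 were higher and 1 lower. Both genes with ATTGGNCCACG, Herpud1 and Dnajb11, were higher, and Vcp, the only one with TGACGTGG, had a log2 fold change of -0.14. These shares are descriptions, and no direction is read from them.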

How the data were processed

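RNA-seq of sorted liver neutrophils was analysed for 4 PBS and 3 MC-21 livers, grouped by their titles. The authors sequenced 3′ libraries, mapped reads to mm9 with HISAT 0.1.5, and deposited RPKM values per gene made in Partek 6.6. Since 3′ reads do not grow with transcript length, RPKM understates long transcripts. The annotation, strand setting and treatment of multiply mapped reads are not given in the sources used here.

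Differences were tested with limma 3.58.1 (lmFit, eBayes with a trend) in R 4.3.3 on log2(RPKM + 1), which understates changes of low genes, keeping 9594 genes whose mean reached 1 RPKM, with Benjamini-Hochberg adjustment over all of them. A gene counts as passing with an adjusted p under 0.05. Exact permutation tests on mean RPKM used all 35 assignments. Reads of members were recovered from RPKM steps and came out whole within 0.05. The fit was tested on simulated data. Members, lists and tests were chosen with earlier results of these data known. Named beside the members were, of each pathway list, genes with an adjusted p under 0.05 or otherwise the 3 smallest unadjusted p under 0.05, and of each marker list the gene with the highest mean. Vldlr, Pycr1 and Trbc2 of the lists were not analysed here. Promoter windows came from RefSeq (GRCm38.p6), for all 10 members and 91 of 113 genes of the pathway lists and members together. Windows on chromosome 18 were left out of the search of these genes, but not of the shares over all windows. Gene overlaps came from the mm9 annotation, and coordinates of the 2 builds were kept apart.

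Alternatives were a pseudocount of 0.1, no filter, a minimum mean of 5 RPKM, median centring, quantile normalization, limma without a trend, unmoderated tests on log2 and RPKM values, each library left out in turn and, added after the data were seen, the 3 libraries highest for Hspa5 left out together. Depth was 1590000 to 3960000 reads, and replicates are separate mice. Python 3.11.15 with scipy 1.17.1, pandas 2.3.3 and numpy 2.4.6 made the tables, and matplotlib 3.10.9 the plots.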

Additional observations from a re-analysis of the deposited data

How the results depend on the processing

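The sign of the difference held under every alternative run for Xbp1, Herpud1, Atf4, Ddit3, Trib3, Asns, Sesn2 and Ppp1r15a. It turned for Atf5 with median centring (0.03) and quantile normalization (0.01), and for Hspa5 with median centring (0.07), without the 3 libraries in which it was highest (0.15), and without MC-21 replicate 3 (0.32), MC-21 replicate 4 (0.16), PBS replicate 6 (0.19) or PBS replicate 7 (0.23). Leaving out MC-21 replicate 2 gave -0.75 for Hspa5. The call of Xbp1 by adjusted p was lost in 8 of 16 alternatives, with its log2 fold change between 1.01 and 1.33 and its adjusted p up to 0.198 (unmoderated test on RPKM values). The number of members called, 1, was 0 with no filter, with the unmoderated test on log2 or on RPKM values and without the 3 libraries, and 0 to 1 with single libraries left out. Under these settings all genes called fell from 60 to 6, 4, 5 and 1, and with single libraries left out they were 9 to 102. Members with an unadjusted p under 0.05, 5, were 2 without the 3 libraries and 3 to 5 with single libraries left out, the 3 being reached without MC-21 replicate 2, PBS replicate 6 or PBS replicate 7. No paired analysis was possible because the groups share no replicate number. The cause of these changes was not tested, and neither was the part of the fewer samples or larger number of genes that some settings bring. Of the unadjusted calls over all genes, 24.3% were higher in MC-21, against 61.1% after median centring and 53.3% after quantile normalization. Depth limits Trib3, Sesn2 and Asns, with under 20 reads in 1 or more libraries each.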

Other observations

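Trib3 in PBS replicate 8, at 2.21 RPKM, lay apart from the other PBS libraries, with a gap of 0.817 of the group's range, and Asns in PBS replicate 7, at 8 RPKM, with one of 0.793. Neither gap passed Dixon's limit for 4 libraries, which chance passes in about 1 of 20 groups.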
